A study of Homo sapiens with 6 samples.

Results

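The entries described here are simple repeats, short tandem arrays whose unit is GC-rich, long for its class and free of CpG. A member is an entry named as a unit in brackets followed by n, whose unit has 5 or more bases and a G plus C share of 60% or more, with no CpG step when copies are joined end to end. The rule uses the letters of the names and no count. Of 15641 entries in the count table, 14298 are simple repeats and 1995 met the rule. Among these, 1057 have more C than G in the unit as named (C-rich), 791 have more G than C (G-rich) and 147 have equal numbers.

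The RNA came from the chromatin fraction of H9 cells, an established line of human embryonic stem cells. The labels put 3 libraries in the naive state and 3 in the primed state, and give no further genotype, agent or time. The growth protocol in the labels names RSeT, a medium for a naive-like state, for all 6 libraries, so the primed state rests on the treatment label. The labels do not state whether replicate libraries were grown separately. All p-values are therefore relative to the variation among these libraries, part of which may be technical. Each value is a read count summed over all genomic copies of a repeat name, so an entry has no single coordinate. The table has no genes, and the labelled cell type could not be checked against markers.

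Total counts ranged from 9748202 to 17791046 in the naive libraries. The primed libraries held 7192242, 118793 and 8106871, and 3 counts in the shallow primed library 2 correspond to 16.8 CPM (counts per 1000000 counts, scaled here with TMM factors). Alpha satellite, the tandem repeat of centromeres, took 25.3% to 42.9% of naive counts and 0.221% to 0.625% of primed counts. Ribosomal RNA took 0.169% to 6.08% in naive and 4.04% to 17.7% in primed libraries. The share of counts left for other entries therefore differed between the states, and the sums below are given over more than 1 total.

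Simple repeats arise and change length mainly by slippage of the DNA polymerase, and transcripts carry them in introns, untranslated regions and non-coding RNA. Arrays with runs of G can fold into G-quadruplexes, in DNA and in RNA, and runs of C can form i-motifs in DNA. CpG is the step at which vertebrate DNA is methylated, so arrays without it lack the main site of that mark. A tandem array has no fixed first base: the same array can be named by any rotation of its unit, and by the reverse complement when it is read from the other strand. The sequences show how the members' names relate, each as 3 copies of the unit written from a common starting point, with 1 copy in the frame of the entry's name in capitals. The first 3 are G-rich entries that were lower in naive libraries. Then come entries with a CTG or CTGCCC unit, the higher entry (GACCCTG)n with one of its rotations, and (TTGCC)n, which varied most among the abundant entries.
G-rich entry (AGGTG)n: AGGTGaggtgaggtg
G-rich entry (GGGGT)n: GGGGTggggtggggt
G-rich entry (GGATGG)n: atggGGATGGggatgggg
balanced entry (CTGCTG)n: CTGCTGctgctgctgctg
C-rich entry (CTGCCC)n: cccCTGCCCctgcccctg
higher entry (GACCCTG)n: accctgGACCCTGgaccctgg
rotation of it (CCCTGGA)n: aCCCTGGAccctggaccctgg
variable entry (TTGCC)n: ccTTGCCttgccttg

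The first question was whether the states differed in the total signal of these repeats. All members together gave 2643, 1547 and 2011 counts per 1000000 total counts in the naive libraries, in the order of their numbers. The primed libraries, listed likewise, gave 5467, 4007 and 4741. Every primed library lay above every naive one, with a primed mean 2.29-fold the naive mean. Within G-rich entries the sum was 363, 249 and 439 per 1000000 in naive libraries and 927, 648 and 731 in primed libraries. This was 350 ± 95.6 against 769 ± 143 (SD, n = 3 each), or 2.19-fold. C-rich entries summed to 2144, 1212 and 1439 per 1000000 in naive and 4132, 3073 and 3723 in primed libraries. Their means were 1599 ± 486 and 3642 ± 534 (SD, n = 3 each), a 2.28-fold difference. Entries with equal G and C had lower sums, 135, 85.7 and 133 per 1000000 in naive and 408, 286 and 288 in primed libraries, 2.78-fold apart. The groups did not overlap in any of the 3 classes on this scale. Other simple repeats were also higher in every primed library on it, so the direction is not particular to the members. The fold was 2.16 for GC-rich longer units with CpG, 1.80 for longer units under 60% GC and 1.96 for units of 1 to 4 bases.

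Part of this distance moved with the denominator. Over the counts outside alpha satellite and ribosomal RNA, per 1000000 of them, the G-rich sum was 529, 483 and 671 in naive and 1129, 680 and 797 in primed libraries, without overlap and 1.55-fold apart. The lowest primed and the highest naive library were nearly level there. The C-rich fold was 1.60 and that of the equal class 1.96 on the same scale, and the sum of all members stayed without overlap at 1.62-fold. There the GC-rich longer units with CpG were 1.52-fold apart with overlap, and longer units under 60% GC 1.26-fold without overlap. With TMM-scaled library sizes the folds were 1.42 for G-rich, 1.47 for C-rich and 1.80 for equal entries, and only the equal class kept its groups apart. These sums carry no p-value.

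**Figure D1:**
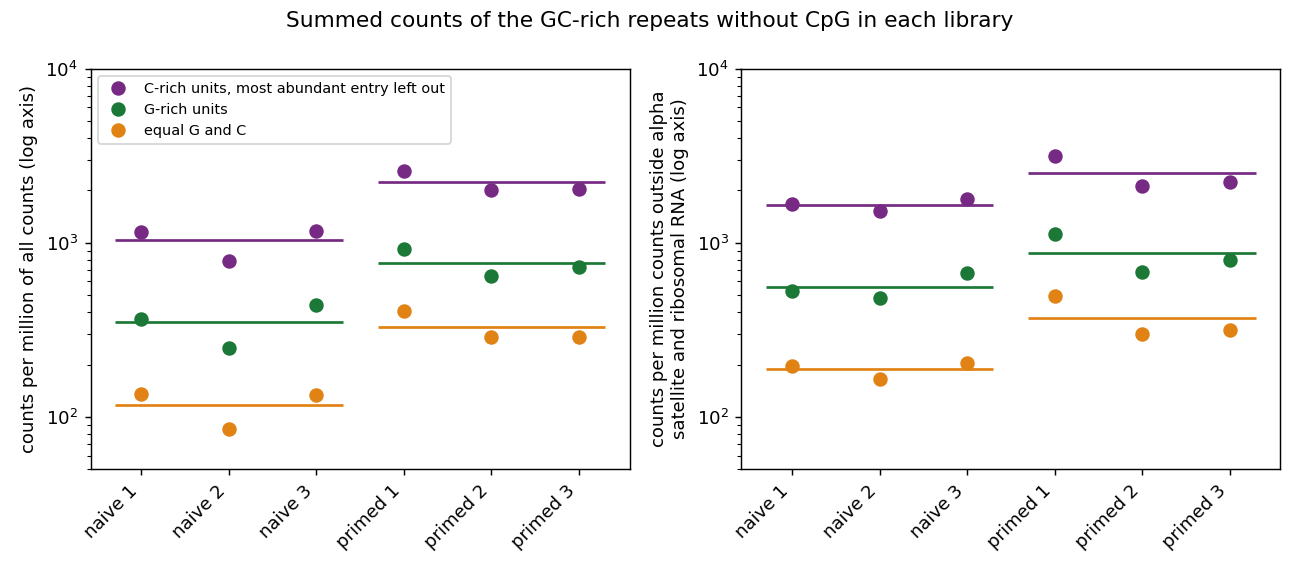
Summed counts of the members in each library on log axes, per 1000000 of all counts (left) and per 1000000 counts outside alpha satellite and ribosomal RNA (right), with bars at the group means. Points are libraries; C-rich sums leave out the most abundant entry. On the left primed libraries lie above naive ones in each class, and on the right the G-rich sums come close, at 671 in naive library 3 and 680 in primed library 2.

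The G-rich share of the skewed entries overlapped between the states. Of the counts in both classes together, G-rich entries held 14.5%, 17.0% and 23.4% in naive and 18.3%, 17.4% and 16.4% in primed libraries. The group means, 18.3% ± 4.57 and 17.4% ± 0.954 (SD, n = 3 each), differed by 0.906 percentage points, less than the spread within the naive group. A single entry, the most abundant, moved this share, because it held 37.8%, 27.8% and 13.5% of all member counts in the naive libraries and 28.1%, 26.3% and 35.4% in the primed ones. Without it the G-rich share was 24.1%, 24.1% and 27.3% in naive and 26.3%, 24.3% and 26.3% in primed libraries. The difference then had the opposite sign, -0.470 percentage points, as it did without naive library 3 at -1.63.

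The second question was which single entries differed between the states. Of the 1995 members, 622 had no count in any library and a further 996 had too few for the test, which left 377 (113 G-rich, 225 C-rich and 39 equal). The tested entries held 89.7% of all member counts. With edgeR's quasi-likelihood test and Benjamini-Hochberg adjustment over all 3219 tested entries at 0.05, 59 members were lower in naive cells, 2 were higher and 316 did not pass. The lower calls were 15.6% of tested members, against 7.77% of all tested entries. The higher calls were 0.531%, against 4.94% over the table, and calls in either direction took 12.7% of the table. The median log2 change, naive minus primed, was -0.63 over tested members and -0.0046 over all tested entries, and 308 of the 377 lay below 0. Groups that did not overlap in TMM-normalised CPM were less frequent than in the table: 77 of 377 members (20.4%) against 30.4% of all tested entries. In primed library 2, 210 of the 377 tested members had no count, against 1093 of all 3219 tested entries. A single count in that library is placed high by the scaling. The summed counts of the 1618 untested members were 1.70-fold higher in primed libraries over all counts, 1.19-fold outside alpha satellite and ribosomal RNA and 1.09-fold with TMM-scaled library sizes, with overlap on each scale.

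Calls were spread over all classes of strand composition. Among C-rich entries 36 of 225 (16.0%) were lower and 2 were higher, with a median of -0.59. Among G-rich entries 15 of 113 (13.3%) were lower and 0 were higher, with a median of -0.60. Entries with equal G and C had 8 lower calls of 39 (20.5%) and a median of -1.07. No test of the difference between these classes was made. The G-rich count of 15 was 23 without naive library 1, 9 without naive library 2, 1 without primed library 1 and 26 without primed library 2. The C-rich count of 36 was 12 without naive library 2 and 0 without primed library 1, and 12 with DESeq2, which called 22 lower members in all. The lower calls of the whole table (250) moved as well. They were 413 without naive library 1, 122 without naive library 2, 7 without primed library 1, 357 without primed library 2 and 114 with DESeq2.

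**Figure D2:**
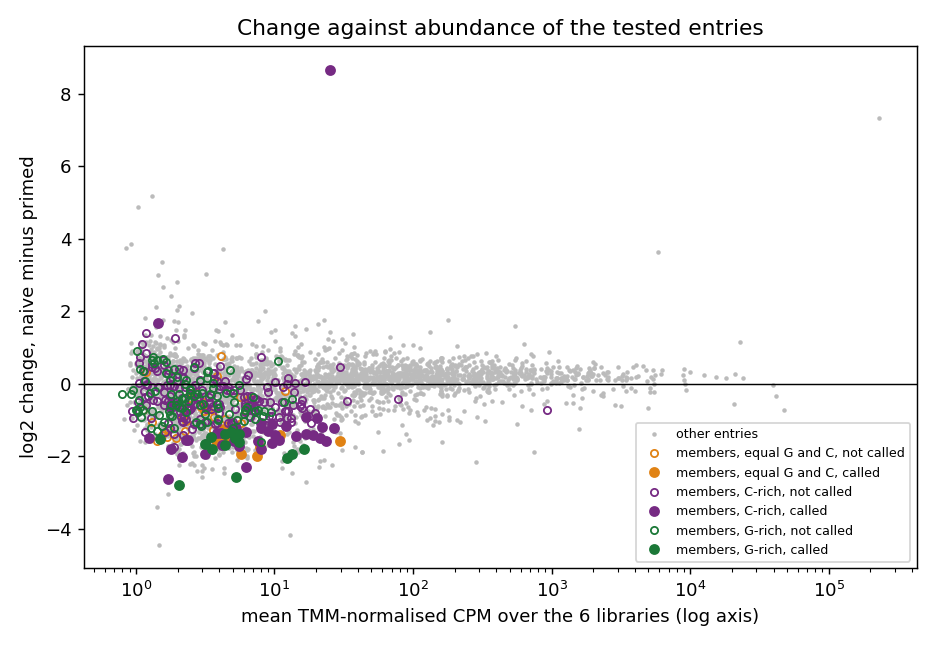
Log2 change, naive minus primed, against mean TMM-normalised CPM (log axis) for the tested entries, with members marked by composition. Of the 377 members 308 lie below 0, and (GACCCTG)n stands alone at 8.66.

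The lower calls rested on primed libraries 1 and 3, and most heavily on library 1. Over the 59 entries the naive libraries had medians of 4.21, 2.87 and 3.37 TMM-normalised CPM. The medians of the primed libraries were 13.4, 5.59 and 7.67. Primed libraries 1 and 3 each exceeded every naive library in 59 of 59 entries. Primed library 1 was the higher of those libraries in 58 of them. The entries were called from these same libraries, so this follows largely from their selection. Over all 377 tested members, primed libraries 1 and 3 exceeded every naive library in 68.4% and 57.0%. The shares over all tested entries were 39.9% and 31.6%. Among the 59, primed library 2 had no count in 21 and at most 8 counts in any, and full separation of the groups was seen in 31. When primed library 1 was left out, all 59 were still tested and stayed below 0, and their median log2 change went from -1.55 to -1.06. The other libraries that gave the calls were still in that fit. In it 44 had an unadjusted p under 0.05, but only (AGGTG)n kept an edgeR adjusted p under 0.05, and the median adjusted p was 0.277. This loss was not particular to the members. The lower calls of the whole table went from 250 of 3219 tested entries to 7 of 3472 without primed library 1. Without naive library 2 the count of lower members was 24, of which 17 were among the 59, and the whole table had 122 lower calls. Primed library 1 was also the library with the highest ribosomal share, and the part of that share in these calls was not tested.

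**Figure D3:**
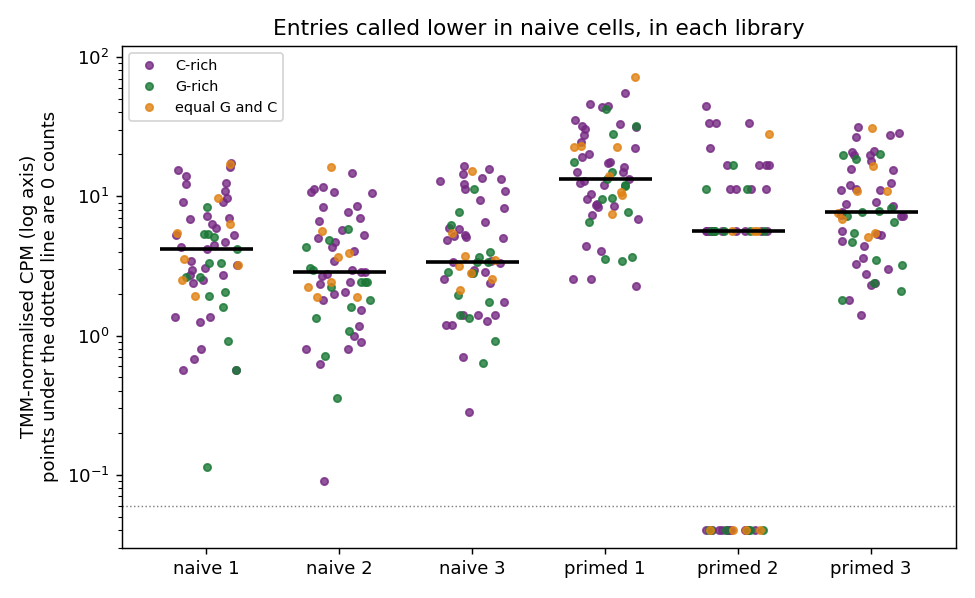
TMM-normalised CPM (log axis) of the 59 entries called lower in naive libraries, with 1 point per entry and library, coloured by composition, and bars at the library medians. Points under the dotted line are 0 counts. The medians are 2.87 to 4.21 in naive libraries, 13.4 in primed library 1 and 7.67 in primed library 3, while the points of primed library 2 stand for 0 to 8 counts.

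Among the G-rich lower entries, (AGGTG)n was the entry that kept its call without primed library 1. It had 47, 65 and 89 counts in naive and 221, 3 and 185 in primed libraries, which is 5.35, 5.83 and 6.25 against 28.0, 16.8 and 18.4 TMM-normalised CPM. All primed libraries were higher than all naive ones. The log2 change was -1.95 ± 0.27 (SE; edgeR adjusted p = 0.00443), and without primed library 1 it was -1.65 (edgeR adjusted p = 0.0320). (GGATGG)n, a unit of purines with a single T, had 5.12, 4.30 and 7.72 CPM in naive and 32.1, 5.59 and 19.6 CPM in primed libraries. Its groups overlapped, since primed library 2 had 1 count, and it is described for its abundance. The log2 change was -2.05 ± 0.35 (edgeR adjusted p = 0.0104), and -1.63 without primed library 1 (edgeR adjusted p = 0.0804). (GGGGT)n has a run of 4 G in each unit, the kind of spacing from which G-quadruplexes are built. It gave 8.42, 4.84 and 11.3 CPM in naive and 42.1, 11.2 and 20.1 in primed libraries, so naive library 3 was just above primed library 2 and the groups overlapped. Its log2 change was -1.82 ± 0.38 (edgeR adjusted p = 0.0177), and -1.21 without primed library 1 (edgeR adjusted p = 0.184). (AAGGG)n is the unit of the intronic RFC1 expansion that causes the ataxia syndrome CANVAS. Here the entry holds 56.9% of the counts of its rotation family, at 3.30, 2.42 and 2.88 CPM in naive and 12.0, 5.59 (1 count) and 4.68 in primed libraries, with a log2 change of -1.51 ± 0.41 (edgeR adjusted p = 0.0358). Without primed library 1 that change was -0.74 (edgeR adjusted p = 0.461), and with all rotations of the unit added it was -1.05 (edgeR adjusted p = 0.0676). The reverse-complement family, led by (TTCCC)n, was at -0.41 (edgeR adjusted p = 0.179). The other abundant G-rich entries, (GCAGG)n and (GGCAG)n, are rotations of one array and did not pass. Their log2 changes were -0.44 (edgeR adjusted p = 0.282) and -0.50 (edgeR adjusted p = 0.231).

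The 10 lower entries with the largest changes among those with separated groups and a mean of at least 5 CPM held 6 C-rich and 2 balanced units besides (AGGTG)n and (AAGGG)n. Some of the 10 had only 1 or 2 counts in primed library 2, where 1 count is 5.59 CPM, and naive means of 2.52 to 2.87 CPM. With no count there, their groups would have overlapped. Their separation therefore rested on those 1 or 2 counts, which also raised the mean used for the floor of 5 CPM. Of the balanced ones, (CTGCTG)n is the CTG triplet written with a doubled unit, the triplet whose expansion in DMPK causes myotonic dystrophy. It had 17.1, 16.3 and 15.2 CPM in naive libraries, a narrow range, and 71.6, 28.0 and 31.0 in primed libraries. The log2 change was -1.58 ± 0.30 (edgeR adjusted p = 0.0133). (GGCACA)n, the other balanced unit, had 3.19, 1.88 and 2.81 CPM in naive and 14.0, 5.59 (1 count) and 6.87 in primed libraries, a log2 change of -1.94 ± 0.39 (edgeR adjusted p = 0.0153). Of the C-rich ones, (CTGCCC)n was the most abundant, at 13.9, 8.51 and 13.5 CPM in naive and 44.2, 33.6 and 27.7 in primed libraries. The lowest primed value stood above the highest naive one by more than the naive libraries differed among themselves. Its log2 change was -1.57 ± 0.27 (edgeR adjusted p = 0.00959). (TCCTCC)n, the doubled triplet TCC, had 9.67, 10.6 and 13.3 CPM in naive and 45.9, 16.8 and 17.8 in primed libraries, where primed library 1 stood apart from the others. Its log2 change was -1.43 ± 0.34 (edgeR adjusted p = 0.0263). Of the remaining 4 C-rich entries, (CACCTCC)n had a log2 change of -1.81 and (GCCAA)n, with 1 count in primed library 2, one of -1.72. That of (GGCCCT)n was -1.65, and for (CTCCAC)n, with 2 counts in primed library 2, it was -1.42. The highest edgeR adjusted p among the 10 was 0.04997, for (CTCCAC)n. Over the 13 lower entries named in these comparisons, 1 kept its call without primed library 1, and the edgeR adjusted p then ran from 0.0320 to 0.461 with log2 changes of -1.65 to -0.66.

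Only (GACCCTG)n and (ACCACC)n were called higher in naive cells. For (GACCCTG)n there were 664, 389 and 585 counts in the naive and 1, 0 and 1 in the primed libraries, or 75.5, 34.9 and 41.1 TMM-normalised CPM against 0.127, 0 and 0.0996. It was near absent from all primed libraries, including the deep ones. Over TMM-scaled library sizes the naive rate was 434 times the primed rate, with a 95% interval of 120 to 3587 that covers counting error only. The fitted log2 change was 8.66 ± 0.58 (edgeR adjusted p = 1.25e-05). Other frames and the other strand had few counts: the 4 other rotations of the unit in the table had 1, 3 and 27 counts in naive and 4, 0 and 10 in primed libraries. The 3 reverse-complement names had 1 count in naive and 1 in primed libraries altogether. With all rotations added, the log2 change was 5.80 (edgeR adjusted p = 0.000538). Among 206694 GENCODE v29 transcripts (GRCh38), 0 held 3 tandem copies of the unit in either orientation. Most introns are left out of these transcripts, and the genome build behind the counts is not stated in the labels or headers. (ACCACC)n, named after its values were seen because it is the only other higher call, had 14, 28 and 44 counts in naive and 4, 0 and 10 in primed libraries. Its log2 change was 1.66 ± 0.49 (edgeR adjusted p = 0.0467), and 1.32 without primed library 1 (edgeR adjusted p = 0.356).

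Of the abundant C-rich entries, (TTGCC)n varied with ribosomal RNA. It had 70.4, 148 and 2.18 CPM in naive and 159, 22.4 and 67.0 in primed libraries, with a log2 change of -0.44 ± 0.90 (edgeR adjusted p = 0.763). With scaling by total counts only, the change was -1.10 and passed (edgeR adjusted p = 0.000364). The sign turned without naive library 3 (0.17) and without primed library 1 (0.31). Naive library 3, which had the least ribosomal RNA, was lowest. Per 1000 ribosomal RNA counts the entry stood at 1.05, 1.66 and 1.10 in naive and at 0.982, 0.834 and 1.04 in primed libraries, so the library that was far below the others in CPM lay among them on this scale. Among 1166 entries compared by the SD of the log2 ratio over the 6 libraries, the nearest pattern was that of the small-subunit ribosomal RNA, at 0.310. This likeness was picked after the values were seen and is a description. Whether the reads of (TTGCC)n come from ribosomal RNA was not tested.

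**Figure D4:**
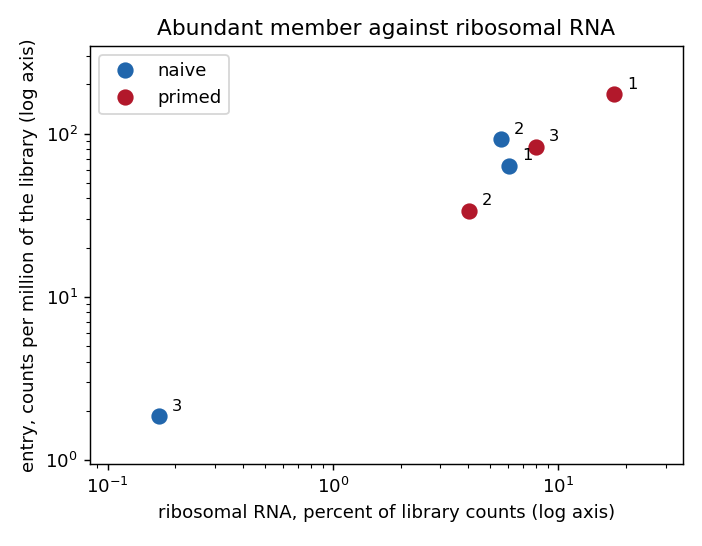
Counts per 1000000 of the library for (TTGCC)n against the ribosomal RNA percent of the library, on log axes, with points numbered by library and coloured by state. The entry goes from 1.86 in naive library 3, at 0.169% ribosomal RNA, to 174 in primed library 1, at 17.7%.

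Among the other abundant C-rich entries, (CCCAGC)n was lower in naive libraries. It had 15.5, 14.6 and 16.4 CPM in naive and 43.4, 44.8 and 26.7 in primed libraries, with a log2 change of -1.22 ± 0.23 (edgeR adjusted p = 0.0133). Its change without primed library 1 was -0.94 (edgeR adjusted p = 0.144). (CTCCACC)n was spread by primed library 2 alone, where 17 counts made 95.1 CPM against 24.2 and 19.1 in the other primed libraries and 30.4, 14.2 and 16.5 in the naive ones. It did not pass (log2 change -0.47, edgeR adjusted p = 0.514). (CCTCT)n had 34.2, 39.7 and 27.6 CPM in naive and 31.4, 28.0 and 17.6 in primed libraries, with overlap and a log2 change of 0.45 (edgeR adjusted p = 0.242). Its sign turned when only total counts were used for scaling, at -0.15.

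Rotations of a unit were often unequal in abundance. The members fall into 721 rotation families, and 149 of these had at least 100 counts. The leading name held a median of 43.0% of its family's counts, more than 50% in 57 families and more than 90% in 9. When the counts of all rotations were added before testing, 183 families were tested, 29 were lower in naive cells and 2 were higher. Of all 2330 entries tested in that fit, 144 were lower and 90 were higher. (GGATGG)n held 96.2% of its family and the summed log2 change was -2.12 (edgeR adjusted p = 0.0180). The reverse-complement family, led by (CCATCC)n, was at 0.21 (edgeR adjusted p = 0.575). Summed (AGGTG)n rotations gave -1.34 (edgeR adjusted p = 0.0227), against 0.01 (edgeR adjusted p = 0.985) for the opposite strand led by (CCTCA)n. For (CTGCTG)n the values were -1.51 (edgeR adjusted p = 0.0251) and -0.39 (edgeR adjusted p = 0.314). The (GGGGT)n family was lower in both orientations, -1.22 (edgeR adjusted p = 0.0395) for the G strand and -0.94 (edgeR adjusted p = 0.0288) for the C strand. Of the 13 lower entries named in these comparisons, (AAGGG)n and (CACCTCC)n lost the call when rotations were added, at -1.05 (edgeR adjusted p = 0.0676) and -1.02 (edgeR adjusted p = 0.0989). The differences between the strands of a pair were not tested.

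The C strand of most pairs carried more counts than the G strand. Of 366 C-rich rotation families, 200 had a G-rich reverse complement in the table, 166 had none, and 106 G-rich families had no C-rich partner. Of the 98 pairs with at least 100 counts, the C-rich name was higher in 80 and the G-rich name in 18, with a median of 75.3% of the pair's counts on the C side. The ratio of C to G counts without the most abundant entry was 3.16, 3.15 and 2.66 in naive and 2.80, 3.12 and 2.80 in primed libraries, which overlap. The same share of C was 75.9%, 75.9% and 72.7% of skewed counts in naive and 73.7%, 75.7% and 73.7% in primed libraries. Among longer repeats under 60% GC it was 50.9% to 55.1% in naive and 53.0% to 55.7% in primed libraries. Among GC-rich longer repeats with CpG it was 74.5% to 79.8% and 70.6% to 75.1%. The kit used keeps strand, but neither the strand setting of the counting nor the annotation is stated in the labels or headers. Transcription of one strand and a preference in naming arrays therefore cannot be told apart.

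**Figure D5:**
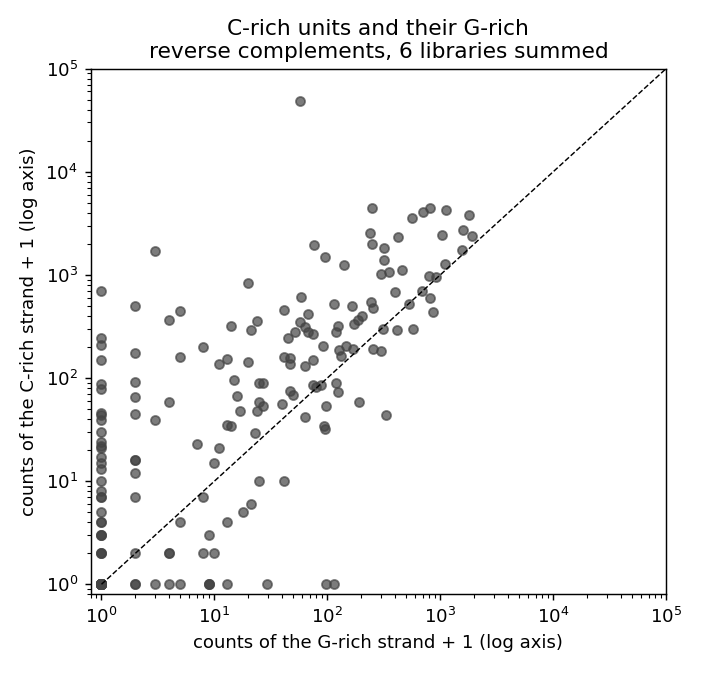
Counts of C-rich rotation families against those of their G-rich reverse complements, on log axes with 1 added, over the 6 libraries together. Points are pairs and the dashed line marks equal counts. Of the 98 pairs with at least 100 counts, 80 lie on the C side of that line.

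GC content within the members was compared first. Median log2 changes were -0.58 for units of 60% to under 70% GC, -0.58 for 70% to under 80% and -0.70 for 80% and over, with 32 of 211, 7 of 58 and 20 of 108 lower. In longer units without CpG the median went from 0.02 for units with no G or C, to -0.11 below 20% GC, -0.12 from 20% to under 40% and -0.35 from 40% to under 60%. The longer GC-rich units that do hold CpG had 59 lower calls of 255 (23.1%), 1 higher call and a median of -0.89. The members' 15.6% and -0.63 lay between these and the longer repeats under 60% GC, where 81 of 1044 were lower, 24 were higher and the median was -0.14. No test of these differences between lists was made.

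Other features of the unit were compared in the same way. By length, 13 of 105 units of 5 bases, 38 of 199 of 6 bases, 7 of 68 of 7 bases and 1 of 5 longer units were lower, with medians of -0.50, -0.73, -0.56 and -1.18. Units with a TG or CA step, the product of methylated CpG that has lost its amino group, had 54 lower calls of 316 (median -0.66) against 5 of 61 without it (median -0.54). Pure purine units, of A and G alone, had 1 lower of 11 and pure pyrimidine units 4 of 49, with medians of -0.76 and -0.51. A run of at least 3 G was present in 48 tested units, of which 6 were lower (median -0.66). A run of at least 3 C was present in 139, of which 23 were lower (median -0.59), and of 190 units with neither, 30 were lower (median -0.66). At the edge of the rule, members at exactly 60% GC had 5 lower of 58 and a median of -0.28, and longer CpG-free units of 55% to under 60% GC had 8 of 45 and -0.50. Units of 4 bases that met the other criteria had 1 lower of 32 and a median of -0.52.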

How the data were processed

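RNA of the chromatin fraction was sequenced from 3 naive and 3 primed H9 libraries made with a directional kit, per the labels' protocols. Per the submitters' processing notes, the tools were Trimmomatic 0.39, STAR 2.7.8a, featureCounts and Subread 2.14.2. The deposited values are raw counts per repeat name. The genome build, repeat annotation, strand setting and handling of reads with several positions were not given in the sources used here, so counts of near-identical names are uncertain.

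The test was edgeR 4.0.16's quasi-likelihood F-test, naive against primed (R 4.3.3, filterByExpr with a minimum count of 10, TMM factors, Benjamini-Hochberg adjustment over all 3219 tested entries, threshold 0.05). CPM values are TMM-normalised. The procedure was tested on simulated data. Named members are those with an adjusted p under 0.05, a mean of at least 5 CPM and groups that do not overlap (up to 10 each way), the 5 most abundant G-rich and C-rich entries, and the rotations and reverse complements of the first set. One abundant entry enters sums and counts but is not reported here by itself. The members and lists were chosen with earlier results of these data known. Alternatives were other scalings and filters, DESeq2 1.42.0, a replicate block, glmTreat, summed rotations, thinning and leaving out each library. The interval of the rate ratio is exact and covers counting error only, because the reads carry no molecular identifiers.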

Additional observations from a re-analysis of the deposited data

How the results depend on the processing

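The count of members lower in naive cells (59; 15 G-rich and 36 C-rich) was 204, 53 and 121 with library size only, 128, 31 and 79 with no filter, 22, 5 and 12 with DESeq2, 29, 5 and 19 with rotations summed, and 0, 0 and 0 with glmTreat against a log2 of 1 and after thinning to the smallest library, where 1 member could be tested. Leaving out each library gave 1 to 85, 1 to 26 and 0 to 50, the lowest without primed library 1. The whole table moved too. Its lower calls (250) were 1051 with library size only, 596 with no filter, 114 with DESeq2 and 144 with rotations summed. They fell to 1 with glmTreat, and to 1 of 717 tested entries after thinning. With a library left out they ran from 7 to 413. The number of members tested also changed, from 377 to 1373 with no filter and to 183 families with rotations summed. The count of higher members (2) was 1 with RLE factors, upper-quartile factors, library size only, DESeq2, glmTreat and without alpha satellite and ribosomal RNA, 9 with no filter, 0 after thinning, and 1 to 4 with a library left out. The higher calls of the whole table (159) were 28 with library size only, 94 with DESeq2, 264 with no filter, 4 with glmTreat and 3 after thinning.

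The median log2 changes of all, G-rich and C-rich members (-0.63, -0.60 and -0.59) were -1.21, -1.18 and -1.14 with library size only, where the median of all tested entries was -0.61. They were -0.90, -0.92 and -0.86 with DESeq2, where all entries had -0.63, and -0.30, -0.28 and -0.31 with no filter. The 1 member left after thinning had -0.93. With a library left out they ran from -0.80 to -0.40, -0.85 to -0.36 and -0.73 to -0.38. The log2 ratio of summed counts was -1.13 for G-rich and -1.19 for C-rich entries, -0.63 and -0.68 outside alpha satellite and ribosomal RNA, -0.51 and -0.55 on TMM library sizes, and -1.33 to -0.94 and -1.46 to -1.02 with a library left out. The G-rich share difference of 0.906 points was -0.470 without the most abundant entry and ran from -1.63 to 2.81 with a library left out.

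Of 321 alternatives of named entries, 272 kept direction and side of the threshold, 36 lost the call, 9 gained it and 4 turned: (TTGCC)n to 0.17 without naive library 3 and 0.31 without primed library 1 (with a library left out its lowest value was -1.41), and (CCTCT)n to -0.15 with library size only and -0.17 with rotations summed. The deviations of libraries from their group means correlated at 0.146, 0.0867 and 0.0659 between naive and primed libraries of the same number. For different numbers they correlated at -0.107 to -0.00325. The same-number values were small but lay above all the others. The numbers were not taken as pairs, and whether they mark pairs was not tested. With the replicate block 70 members were lower and 2 higher, 15 of the lower G-rich and 46 C-rich, with medians of -0.55, -0.54 and -0.54. The whole table then had 374 lower and 264 higher calls, against 250 and 159 in the main fit. Under the block (TTGCC)n passed at -1.65 (edgeR adjusted p = 2.68e-18) and (CTCCAC)n lost its call at -1.18 (edgeR adjusted p = 0.0534). Primed library 2, with 118793 counts, limits what single entries can show there.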
